A study of Homo sapiens with 4 samples.

Results

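CRYAB, the other small heat shock proteins and their closest partners were followed across 2 libraries of resistant cells (Res) and 2 libraries of parental cells (Ctrl) of 92.1 cells. This established cell line was grown from a uveal melanoma, a tumour of the eye's pigment cells. The 9 genes considered were CRYAB, HSPB1, HSPB2, HSPB6, HSPB8, HSPB11, BAG3, HSF1 and HSF2, of which 7 had a value among the 11650 genes measured in each library. The expression of HSPB6 and HSPB8 was not analysed here. They were chosen by name, with CRYAB taken because it stood out in the comparison of Res with Ctrl, so their differences between the groups are given as a description and carry no p-value. Both groups carry the label uveal melanoma cells, the Res cells are labelled resistant and the Ctrl cells parental, and the labels name neither the agent nor how resistance arose. One label field gives each library a different line number, while the titles name 92.1 for all. The labels do not tell whether replicates are separate cultures, so the spread between them may be technical and p-values speak only for these libraries.

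Small heat shock proteins are chaperones that work without ATP. Their shared alpha-crystallin domain holds unfolding proteins in large, changing oligomers until the ATP-driven HSP70 system refolds them or hands them on for degradation. CRYAB (alpha B-crystallin) is known from the eye lens, heart and skeletal muscle, where it guards the desmin filament network, and from tumours, where it has been described as a brake on the maturation of caspase-3. Transcription of many chaperone genes after heat or protein damage is driven by HSF1, a trimeric factor that binds repeats of the bases GAA in alternating orientation, and HSF2 is a related factor that can form mixed trimers with it.

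The values are FPKM (fragments scaled to transcript length and to library size). Their sum over all genes was 292736 and 293481 in the Res libraries and 282602 and 283387 in the Ctrl libraries, and read depth is unknown. Of the 10271 genes averaging 1 FPKM or more over the libraries, limma called 6 (0.0584%) at an adjusted p under 0.05, 5 (0.0487%) higher and 1 (0.00974%) lower in Res. All 10 melanocyte markers had a value, summing to 3080 and 2336 FPKM in Res and 2696 and 2406 FPKM in Ctrl, most of it TYRP1. Of these markers 5 (DCT, SOX10, MITF, GPR143 and OCA2) were lower in both Res libraries, 1 (TYRP1) was higher and 4 overlapped. Over all genes tested, 31.8% were lower and 19.1% higher in both Res libraries. Among the markers limma called 0 (3 lower and 0 higher at an unadjusted p under 0.05, beside 10.2% and 6.06% of all genes tested). DCT, a melanin synthesis enzyme, stood at 0.486 and 0.517 FPKM in Res and 4.88 and 5.46 FPKM in Ctrl, a log2 difference of -2.04 ± 0.17 (SE, limma adjusted p = 0.0544).

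CRYAB stood at 89.6 and 88.7 FPKM in the Res libraries and at 2.08 and 4.31 FPKM in the Ctrl libraries. Both Res libraries lay far above both Ctrl libraries, and the lower of the Res values was 20.6 times the higher of the Ctrl values. The means were 89.1 ± 0.607 FPKM in Res and 3.19 ± 1.58 FPKM in Ctrl (SD, n = 2 each), a ratio of 27.9 and a log2 difference of 4.48 ± 0.29 (SE) on the log2(FPKM + 1) scale. In level, CRYAB ranked 279th and 296th of all measured genes in the Res libraries, against 8553rd and 6111th in the Ctrl libraries. Its log2 difference was the largest of the genes tested, and its rank was 3 after rescaling to a common sum, 4 with a pseudocount of 0.1 and 2 without Ctrl replicate 1. CRYAB was the 1 member of 6 tested that limma called, beside 0.0584% of all genes tested, and since this contrast chose it the call is no separate evidence. With a pseudocount of 0.1, median-of-ratios scaling or quantile normalization the call was lost at log2 differences of 4.85, 4.57 and 4.54. Without Res replicate 1 or Res replicate 2 the call was lost at log2 differences of 4.47 and 4.49. Leaving out Ctrl replicate 1 or Ctrl replicate 2 gave 4.09 and 4.87, so the Ctrl libraries set most of the spread.

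HSPB1 (HSP27), which caps actin filaments and buffers oxidative and heat damage, was by far the most abundant member in every library. It stood at 322 and 381 FPKM in Res and at 323 and 336 FPKM in Ctrl. The groups overlapped, with means of 351 ± 41.8 FPKM in Res and 329 ± 9.49 FPKM in Ctrl (SD, n = 2 each) and a log2 difference of 0.09 ± 0.14 (SE). The sign of this difference turned under 1 of 12 alternatives. In GENCODE release 29, 5.84% of the 50-base words of HSPB1 transcripts also occur in transcripts of other genes, mainly the copy HSPB1P1, so the level is slightly uncertain.

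HSPB2, a muscle-enriched member that binds the myotonic dystrophy kinase DMPK, stood at 1.21 and 1.27 FPKM in Res and at 0.0713 and 0.160 FPKM in Ctrl. Both Res libraries were higher, with a log2 difference of 1.01 ± 0.13 (SE, fit without the minimum mean). HSPB2 was below that minimum and so was not among the genes tested. It lies on chromosome 11 (111912242 to 111914093, plus strand, GRCh38) inside the annotated span of CRYAB (111908565 to 111923722, minus strand). Of its 1335 annotated exon bases, 626 (46.9%) are also exon bases of CRYAB on the opposite strand. The libraries were strand-specific, but the sources used here do not state whether counting used strand, so reads of HSPB2 and of CRYAB on that stretch cannot be told apart. Of the same exon bases, 719 (53.9%) are shared on the same strand with the readthrough gene HSPB2-C11orf52, whose expression was not analysed here. HSPB2 amounted to 1.35% and 1.43% of CRYAB in Res and to 3.44% and 3.72% in Ctrl.

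**Figure D1:**
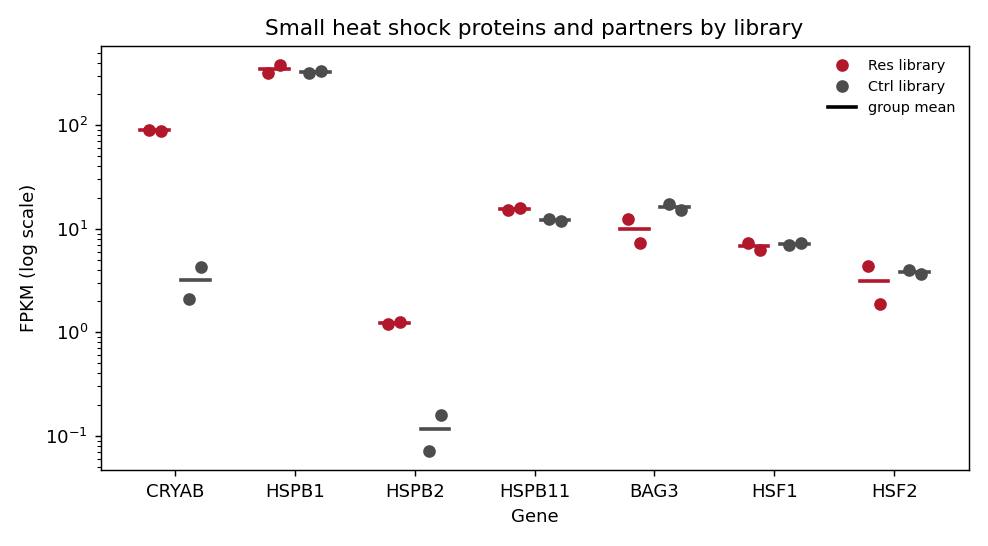
FPKM (log scale) of the 7 genes with a value, with 1 point per library, Res left of Ctrl and a line at each group mean. CRYAB is at 89.6 and 88.7 FPKM in Res and 2.08 and 4.31 FPKM in Ctrl, HSPB2 is also higher in Res at a far lower level, and HSPB1 stays between 322 and 381 FPKM in all 4 libraries.

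Of the 11 genes of the small heat shock protein family, 6 had a value, and besides the members these were HSPB3 and HSPB7. HSPB7, a heart-enriched member, stood at 6.75 and 5.47 FPKM in Res and 5.54 and 5.91 FPKM in Ctrl, and the groups overlapped. HSPB3, a muscle member with a value only through Res, stood at 0.691 and 0.553 FPKM in Res and at 0.241 FPKM in Ctrl replicate 1, and was listed at 0 in Ctrl replicate 2. Summed over CRYAB, HSPB1, HSPB2, HSPB3 and HSPB7, the family reached 420 and 477 FPKM in Res and 330 and 346 FPKM in Ctrl. CRYAB made up 21.3% and 18.6% of that sum in Res and 0.628% and 1.24% in Ctrl. HSPB1 made up 76.6% and 79.9% in Res and 97.6% and 97.0% in Ctrl. Per length, HSPB1 was 3.59 and 4.29 times as abundant as CRYAB in Res and 155 and 78.0 times as abundant in Ctrl.

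**Figure D2:**
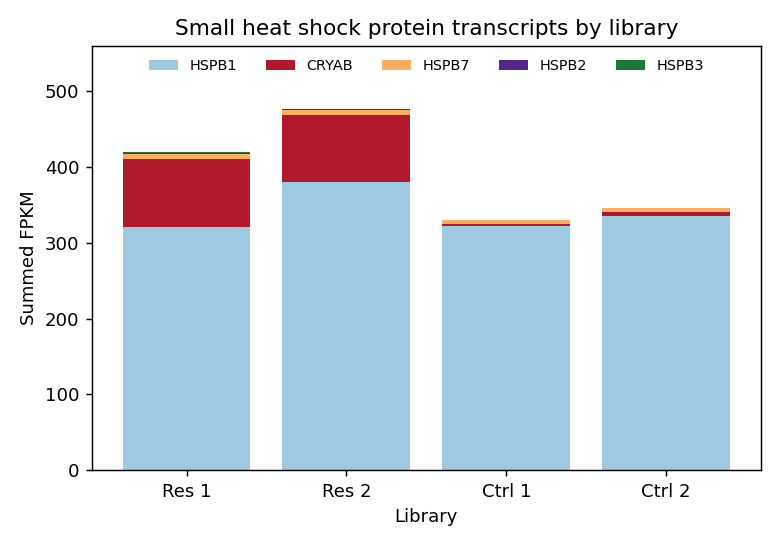
Summed FPKM of the 5 measured genes with an alpha-crystallin domain in each library, stacked by gene. The HSPB1 block is of like height in all 4 bars, and the CRYAB block makes up 21.3% and 18.6% of the Res bars and 0.628% and 1.24% of the Ctrl bars.

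HSPB11 carries the family's name but lacks its alpha-crystallin domain and is better known as IFT25, a subunit of the intraflagellar transport complex of cilia. It stood at 15.2 and 15.8 FPKM in Res and at 12.4 and 11.9 FPKM in Ctrl. Both Res libraries were higher, by a log2 difference of 0.32 ± 0.16 (SE), which became 0.42 after median-of-ratios or quantile scaling.

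BAG3, the co-chaperone that couples HSPB8 and HSP70 to selective autophagy and is itself induced by HSF1, was lower in Res. It stood at 12.6 and 7.30 FPKM in Res and at 17.5 and 15.2 FPKM in Ctrl. Both Res libraries were lower, though they differed from each other more than the Ctrl libraries did. The means were 9.94 ± 3.73 FPKM in Res and 16.4 ± 1.65 FPKM in Ctrl (SD, n = 2 each), with a log2 difference of -0.71 ± 0.28 (SE).

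The levels of HSF1 and HSF2 overlapped between the groups. HSF1 stood at 7.22 and 6.28 FPKM in Res and 7.04 and 7.22 FPKM in Ctrl, with a log2 difference of -0.07 ± 0.18 (SE) whose sign turned under 3 of 12 alternatives. HSF2 stood at 4.38 and 1.90 FPKM in Res and 3.99 and 3.63 FPKM in Ctrl, with a log2 difference of -0.28 ± 0.33 (SE). In both genes the groups overlapped, and for HSF2 Res replicate 2 was the lowest library and Res replicate 1 the highest. HSF4, the lens-enriched factor of the same family, stood at 1.67 and 1.54 FPKM in Res and 1.88 and 1.71 FPKM in Ctrl, slightly lower in both Res libraries (limma adjusted p = 0.780). These are transcript levels, and HSF1 is known to be controlled largely after translation.

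Of the 7 genes with a value, 3 were higher in both Res libraries than in both Ctrl libraries, 1 was lower and 3 overlapped, where 51.8% of all measured genes had groups that did not overlap (20.1% higher and 31.8% lower in both Res libraries). No measured gene had both group means below 0.5009 FPKM, so HSPB2 had a value only through its Res level and had to be higher there. Of the 6 members tested, 3 had groups that did not overlap, beside 51.0% of all genes tested. In Res the mean levels ran from HSPB1 through CRYAB, HSPB11, BAG3, HSF1 and HSF2 down to HSPB2. In Ctrl they ran from HSPB1 through BAG3, HSPB11, HSF1, HSF2 and CRYAB to HSPB2. CRYAB stood above BAG3, HSPB11, HSF1 and HSF2 in Res and below those 4 genes in Ctrl. In Ctrl the values of HSF2 lay within the range of CRYAB, so those neighbours were not separated there, and all other neighbours in either order had ranges that did not overlap.

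The genes around CRYAB were examined next, because HSPB2 shares its locus. Among the 5 nearest protein-coding genes on each side in GENCODE release 29, 7 had a value. HSPB2, DIXDC1 and DLAT were higher in both Res libraries, but HSPB2 and DIXDC1 had Ctrl means below 0.5009 FPKM and so had a value only through Res, and no count is read from these genes. DIXDC1, a positive regulator of Wnt signalling that starts 3422 bases beyond the CRYAB span, stood at 2.15 and 0.543 FPKM in Res and at 0.261 and 0.245 FPKM in Ctrl. DLAT, a subunit of pyruvate dehydrogenase, stood at 9.28 and 7.92 FPKM in Res and at 6.39 and 3.55 FPKM in Ctrl, a log2 difference of 0.72 ± 0.28 (SE, limma adjusted p = 0.305). DLAT was thus higher in both Res libraries without passing the threshold, while the tested genes on the other side of CRYAB overlapped. CFAP68 stood at 3.20 and 3.76 FPKM in Res and 2.89 and 3.24 FPKM in Ctrl (limma adjusted p = 0.743). The mannosyltransferase gene ALG9 stood at 3.24 and 2.11 FPKM in Res and 2.07 and 2.32 FPKM in Ctrl (limma adjusted p = 0.707). The phosphatase scaffold gene PPP2R1B stood at 2.80 and 0.762 FPKM in Res and 1.73 and 2.25 FPKM in Ctrl (limma adjusted p = 0.819). Of the 4 neighbours tested limma called 0, and 1 (DLAT) was higher at an unadjusted p under 0.05, beside 6.06% of all genes tested.

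**Figure D3:**
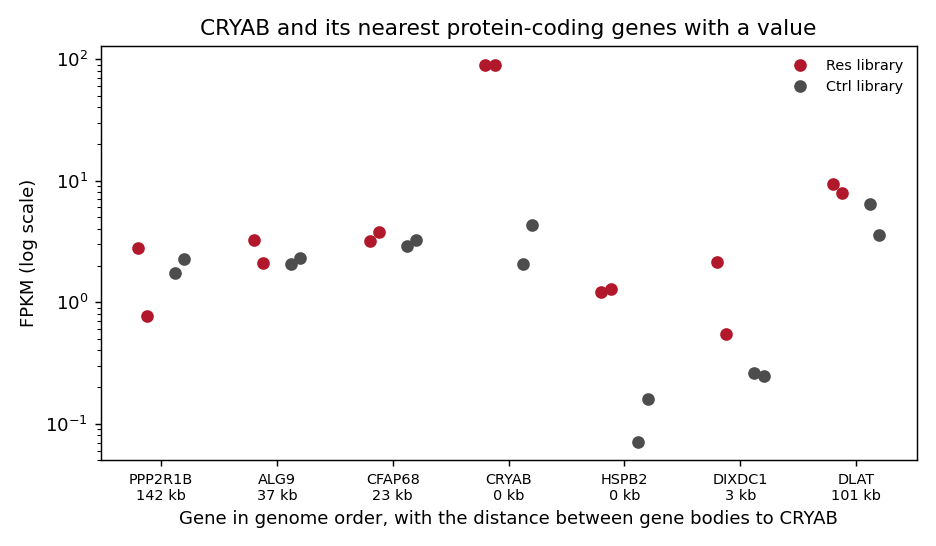
FPKM (log scale) of CRYAB and its nearest protein-coding genes with a value, in genome order, with the distance between gene bodies under each name and 1 point per library, Res left of Ctrl. CRYAB, HSPB2, DIXDC1 and DLAT have both Res points above both Ctrl points, and PPP2R1B, ALG9 and CFAP68 overlap. A further gene, listed at 0 in 2 libraries, is not drawn.

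Most genes of the wider heat shock response were lower in Res. Of 26 HSF1-responsive chaperone and co-chaperone genes on a textbook list, 24 were tested, and limma called 0 of them (8 lower and 0 higher at an unadjusted p under 0.05, beside 10.2% and 6.06% of all genes tested). In 16 genes (66.7%) both Res libraries lay below both Ctrl libraries, and in 3 (12.5%) above, where 31.8% and 19.1% of all genes tested did so. The median log2 difference was -0.35, beside -0.08 over all genes tested, and 19 of the 24 were below 0. After median-of-ratios scaling 14 genes were lower in both Res libraries (58.3%, against 26.4% of all genes), with a list median of -0.25 beside 0.01 over all genes. The list includes BAG3 and was drawn up with the difference in CRYAB known, and its genes are not independent of each other.

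The heat-inducible HSP70 genes HSPA1A and HSPA1B were at the low end of the list. HSPA1A stood at 16.4 and 8.94 FPKM in Res and 32.4 and 27.8 FPKM in Ctrl, a log2 difference of -1.24 ± 0.30 (SE, limma adjusted p = 0.183). HSPA1B stood at 32.0 and 30.1 FPKM in Res and 67.3 and 54.5 FPKM in Ctrl, a log2 difference of -0.94 ± 0.17 (SE, limma adjusted p = 0.137). The pair are near-identical copies, with 71.3% of the 50-base words of HSPA1A transcripts shared with other genes, so reads may be divided between them arbitrarily, and their sum was 48.3 and 39.0 FPKM in Res and 99.7 and 82.2 FPKM in Ctrl. FKBP4, a co-chaperone of HSP90, stood at 25.4 and 22.3 FPKM in Res and 40.1 and 38.9 FPKM in Ctrl (log2 difference -0.71 ± 0.16 SE, limma adjusted p = 0.170). None of these genes passed the threshold, and in all of them the Res libraries were the lower ones.

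The constitutive HSP70 gene HSPA8, which receives clients from small heat shock proteins, stood at 176 and 160 FPKM in Res and 213 and 259 FPKM in Ctrl (limma adjusted p = 0.259). DNAJB1, its heat-inducible HSP40 partner, stood at 23.4 and 19.7 FPKM in Res and 30.2 and 28.7 FPKM in Ctrl (limma adjusted p = 0.305). For the abundant HSP90 genes the groups overlapped. HSP90AB1 stood at 934 and 1089 FPKM in Res and 1052 and 1073 FPKM in Ctrl, and HSP90AA1 at 543 and 996 FPKM in Res and 676 and 741 FPKM in Ctrl. The 3 genes higher in both Res libraries were HSPE1, the mitochondrial co-chaperonin (97.4 and 122 FPKM in Res, 82.0 and 83.8 FPKM in Ctrl), HSPH1, an HSP70 exchange factor (42.9 and 44.3 FPKM in Res, 33.7 and 38.3 FPKM in Ctrl), and CHORDC1, an HSP90 co-chaperone.

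**Figure D4:**
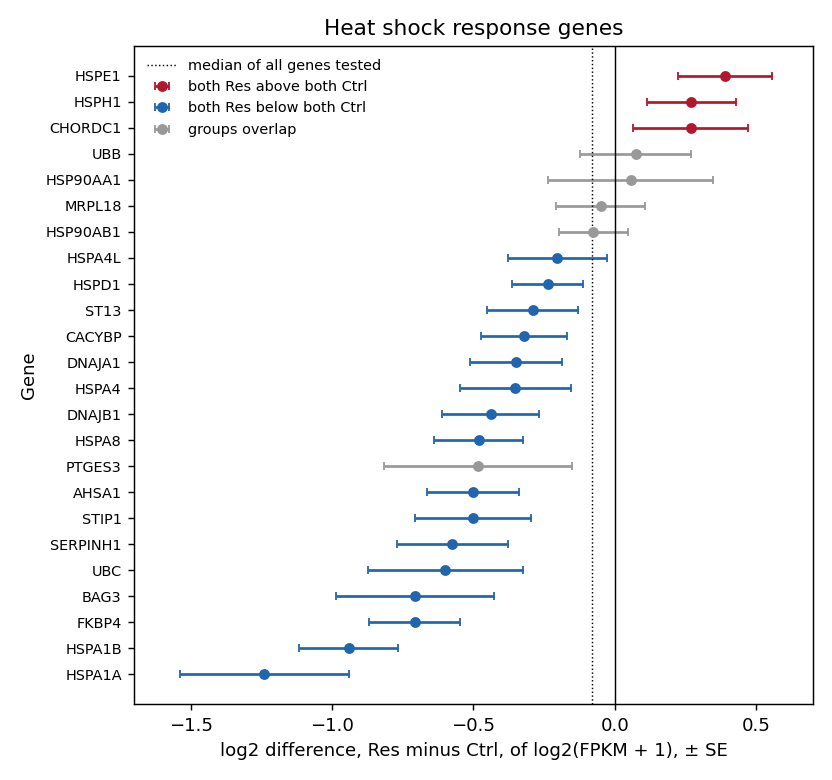
Log2 difference (Res minus Ctrl, on the log2(FPKM + 1) scale, with limma SE) of the 24 tested heat shock response genes, coloured by whether the libraries of the groups overlap. In 16 genes both Res libraries are below both Ctrl libraries and in 3 above, with HSPA1A at -1.24 and HSPE1 at 0.39, and the dotted line marks the median of all genes tested at -0.08.

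Promoter sequences from RefSeq on GRCh38.p14 were searched for short words made of 2 units of the repeat that HSF1 binds. The words were GAANNTTC and TTCNNGAA, which read the same on both strands and can overlap each other, in the 250 bases before each gene start. Of the members, 6 matched the table with 8 promoters, and 3 of these promoters (37.5%) held a word, those of HSPB1, HSPB6 and HSPB8. CRYAB, HSPB2 and HSF1 had no entry. Of 37 promoters of the response list without BAG3, 14 (37.8%) held a word, beside 11.6% of the 35116 promoters in the table. The next longer form, with 3 alternating units in a row, was found in 7 (18.9%) of the response list promoters and in 0 of the member promoters, beside 0.44% of all. Shown here are the promoter of HSPB1, whose level did not separate the groups, and those of 3 response genes that were lower in both Res libraries (for DNAJB1 the 1 of its promoters that held a word). They lie at chr7:76302423-76302672 (plus strand), chr6:31815293-31815542 (plus), chr11:123062137-123062386 (minus) and chr19:14518398-14518647 (minus), and capitals mark the words.
HSPB1: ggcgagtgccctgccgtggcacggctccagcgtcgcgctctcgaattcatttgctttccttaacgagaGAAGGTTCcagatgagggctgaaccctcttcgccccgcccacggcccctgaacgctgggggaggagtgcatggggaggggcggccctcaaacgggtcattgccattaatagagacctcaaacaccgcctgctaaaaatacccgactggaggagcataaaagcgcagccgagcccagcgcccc
HSPA1A: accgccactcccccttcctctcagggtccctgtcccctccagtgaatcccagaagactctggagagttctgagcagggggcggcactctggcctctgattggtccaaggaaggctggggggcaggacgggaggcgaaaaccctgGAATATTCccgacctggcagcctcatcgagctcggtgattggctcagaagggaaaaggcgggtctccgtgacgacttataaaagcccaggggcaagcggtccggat
HSPA8: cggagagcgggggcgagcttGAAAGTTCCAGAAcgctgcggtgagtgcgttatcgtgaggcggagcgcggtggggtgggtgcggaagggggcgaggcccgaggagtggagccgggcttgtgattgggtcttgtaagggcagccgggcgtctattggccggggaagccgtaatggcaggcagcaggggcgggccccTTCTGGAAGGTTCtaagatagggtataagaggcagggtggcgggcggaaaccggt
DNAJB1: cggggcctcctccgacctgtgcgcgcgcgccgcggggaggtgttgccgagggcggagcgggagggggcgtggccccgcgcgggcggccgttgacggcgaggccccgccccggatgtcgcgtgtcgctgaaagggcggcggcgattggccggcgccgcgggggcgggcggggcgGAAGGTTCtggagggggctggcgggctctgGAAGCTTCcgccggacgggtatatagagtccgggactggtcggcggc
In HSPB1 the word begins 182 bases before the start and in HSPA1A 106 bases before it. HSPA8 has 4 words in 2 overlapping pairs and DNAJB1 has 2. A word is a match of letters and does not show binding. The promoter of CHORDC1, a gene higher in both Res libraries, held 6 words. Those of AHSA1, STIP1 and CACYBP, lower in both Res libraries, held no word. A link between words and the direction of the difference was not tested.

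Partners and regulators of the chaperones were also measured. Of 17 genes of the BAG family and of chaperone-assisted autophagy, 16 were tested and limma called 0 (1 higher and 5 lower at an unadjusted p under 0.05, beside 6.06% and 10.2% of all genes tested). In 7 (43.8%) both Res libraries were lower and in 3 (18.8%) higher, beside 31.8% and 19.1% of all genes tested. The lower genes include the member BAG3 and HSPA8. Both are also counted in the heat shock response list, so the counts of these lists are not independent. STUB1, the ubiquitin ligase CHIP that tags chaperone clients, stood at 13.3 and 11.2 FPKM in Res and 21.0 and 19.4 FPKM in Ctrl (limma adjusted p = 0.199). MAP1LC3B, the autophagosome marker LC3B, stood at 20.9 and 26.5 FPKM in Res and 14.7 and 14.0 FPKM in Ctrl (limma adjusted p = 0.214). SQSTM1, the autophagy receptor p62, overlapped, at 39.9 and 63.9 FPKM in Res and 43.6 and 41.4 FPKM in Ctrl.

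Of 12 heat shock factors and HSF1 regulators, 10 were tested and limma called 0 (1 higher and 0 lower at an unadjusted p under 0.05, beside the same 6.06% and 10.2%). In 3 (30.0%) both Res libraries were higher and in 2 (20.0%) lower, beside 19.1% and 31.8% of all genes tested. The median log2 difference was -0.09, beside -0.08 over all genes tested. The lower genes were HSF4 and HSBP1, the latter at 16.1 and 16.2 FPKM in Res and 19.7 and 20.0 FPKM in Ctrl. The acetyltransferase genes CREBBP and EP300, whose products modify HSF1, were among the genes higher in both Res libraries. CREBBP stood at 5.57 and 5.92 FPKM in Res and 3.54 and 3.27 FPKM in Ctrl (limma adjusted p = 0.221), and EP300 at 6.79 and 8.54 FPKM in Res and 5.15 and 5.46 FPKM in Ctrl (limma adjusted p = 0.334). SIRT1, the deacetylase that prolongs DNA binding of HSF1, stood at 6.47 and 4.66 FPKM in Res and 3.76 and 4.39 FPKM in Ctrl. PSIP1 (LEDGF), a stress-related chromatin factor, spread widely, with 11.7 and 34.6 FPKM in Res and 29.3 and 21.0 FPKM in Ctrl.

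Of 13 transcription factors that have been linked to the CRYAB gene, 9 were tested and limma called 0 (0 higher and 1 lower at an unadjusted p under 0.05, beside 6.06% and 10.2%). NR3C1, the glucocorticoid receptor, stood at 5.84 and 4.45 FPKM in Res and 3.30 and 3.53 FPKM in Ctrl (limma adjusted p = 0.333). ETS1 stood at 15.9 and 14.6 FPKM in Res and 20.3 and 21.7 FPKM in Ctrl (limma adjusted p = 0.297). Of the 6 osmotic stress genes 4 were tested and limma called 0 (0 at an unadjusted p under 0.05), with the aldose reductase gene AKR1B1 at 21.2 and 16.1 FPKM in Res and 18.5 and 19.3 FPKM in Ctrl. The taurine transporter gene SLC6A6 stood at 1.93 and 1.38 FPKM in Res and 2.46 and 1.96 FPKM in Ctrl.

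Among 19 reported binding partners and clients of CRYAB, 15 were tested and limma called 0. At an unadjusted p under 0.05, 1 was higher and 2 were lower, beside 6.06% and 10.2% of all genes tested. The intermediate filament genes NES and VIM lay on opposite sides of 0. NES (nestin) stood at 43.4 and 49.1 FPKM in Res and 24.4 and 22.4 FPKM in Ctrl (log2 difference 0.95 ± 0.16 SE, limma adjusted p = 0.122). VIM (vimentin) stood at 189 and 215 FPKM in Res and 295 and 287 FPKM in Ctrl (log2 difference -0.53 ± 0.13 SE, limma adjusted p = 0.195). VEGFA, an angiogenic factor, stood at 1.01 and 0.354 FPKM in Res and 1.60 and 1.71 FPKM in Ctrl (limma adjusted p = 0.269). ACTB overlapped, at 519 and 516 FPKM in Res and 520 and 484 FPKM in Ctrl.

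Of 20 other genes named crystallins 5 had a value, 3 were tested, and limma called 0 (1 lower and 0 higher at an unadjusted p under 0.05, beside 10.2% and 6.06% of all genes tested). CRYL1, a metabolic enzyme, stood at 13.0 and 9.05 FPKM in Res and 20.6 and 18.2 FPKM in Ctrl (limma adjusted p = 0.221). CRYZ, a quinone reductase, overlapped, at 8.57 and 5.84 FPKM in Res and 7.41 and 8.99 FPKM in Ctrl.

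CRYAB is abundant in lens, muscle and glia, so markers of those and other cell types were read beside it. Of 10 lens markers only CRYGS had a value, at 0.830 and 0.739 FPKM in Res and 1.39 and 0.740 FPKM in Ctrl. Of 11 muscle markers 2 had a value, summing to 14.6 and 12.5 FPKM in Res and 24.1 and 17.8 FPKM in Ctrl, nearly all from TNNT1. Of 7 glial markers 3 had a value, summing to 15.1 and 6.54 FPKM in Res and 12.9 and 13.7 FPKM in Ctrl. Retinal pigment epithelium markers (3 of 6 with a value) summed to 4.48 and 3.08 FPKM in Res and 5.29 and 4.69 FPKM in Ctrl. Within that sum BEST1 overlapped, and RLBP1 was lower in Res (0.722 and 0.758 FPKM, against 2.49 and 2.24 FPKM in Ctrl). TTR (0.553 and 0.847 FPKM in Res, 0 and 0.0350 FPKM in Ctrl) had a value only through Res and had to be higher there. None of these sums was higher in both Res libraries.

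Epithelial markers were higher in both Res libraries, but KRT8 and KRT19 had Ctrl means below 0.5009 FPKM. KRT8 and KRT19 thus had a value only through Res and had to be higher there. KRT8, KRT18 and KRT19, the 3 of 8 with a value, summed to 9.39 and 17.7 FPKM in Res and 3.12 and 3.91 FPKM in Ctrl. Limma called 0 of these markers, and no count of direction is read from them. KRT18, whose direction was not fixed in this way, stood at 6.73 and 9.62 FPKM in Res and 2.67 and 3.26 FPKM in Ctrl (limma adjusted p = 0.141). KRT19 differed most within Res, at 1.10 and 6.29 FPKM, against 0.205 and 0.287 FPKM in Ctrl. Fibroblast markers (3 of 9 with a value) summed to 9.59 and 7.34 FPKM in Res and 5.20 and 6.01 FPKM in Ctrl, also higher in both Res libraries. LUM, which made up most of that sum, overlapped. COL1A1 stood at 1.16 and 1.89 FPKM in Res and 0.742 and 0.841 FPKM in Ctrl (limma adjusted p = 0.322). COL1A2 stood at 0.747 and 0.531 FPKM in Res and 0.00848 and 0.00683 FPKM in Ctrl. It had a value only through Res, had to be higher there and was not among the genes tested. The leukocyte marker CD68, 1 of 6 with a value, stood at 7.24 and 4.97 FPKM in Res and 21.0 and 15.7 FPKM in Ctrl. The part of other cells in the CRYAB difference was not tested. In bulk RNA, more cells with CRYAB and more CRYAB per cell cannot be told apart.

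The genes whose profile over the 4 libraries was most like that of CRYAB were HTN1, HTN3, SPP1, TMSB4X and DAG1, by the smallest Euclidean distance between centred log2(FPKM + 1) profiles, at 0.54, 0.97, 1.57, 1.74 and 1.84. A profile of 4 libraries in 2 groups mostly measures the size of the group difference. HTN1, a histatin gene of saliva, stood at 24.6 and 26.6 FPKM in Res and 0.338 and 0.425 FPKM in Ctrl. HTN3 is its close copy, so reads may be divided between them. SPP1, which encodes the secreted phosphoprotein osteopontin, stood at 54.6 and 29.4 FPKM in Res and 3.14 and 5.01 FPKM in Ctrl. DAG1, which encodes the matrix receptor dystroglycan, stood at 8.47 and 5.58 FPKM in Res and 0.150 and 0.191 FPKM in Ctrl. All of these were low in both Ctrl libraries and higher in both Res libraries, which follows from their choice by likeness to CRYAB. HTN1, HTN3 and DAG1 were below 0.5009 FPKM in both Ctrl libraries and so had a value only through Res.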

How the data were processed

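RNA from 2 Res and 2 Ctrl libraries of 92.1 cells was sequenced from stranded dUTP libraries, per the labels' protocols. The deposited values are FPKM, 1 per gene and library, per the file headers, and the build was hg38, per the submitters' processing notes. The labels name both poly(A) selection and rRNA depletion. The sources used here state no aligner, FPKM program, annotation release or use of strand in counting. Identifiers were named from a current symbol table and GENCODE release 29 (11596 of 11650 identifiers found), and HSPB11 was matched through its release 29 name.

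Values were taken as log2(FPKM + 1) and genes averaging 1 FPKM or more were tested with limma 3.58.1 in R 4.3.3 (variance trend, two-sided, Benjamini-Hochberg over all 10271 genes, threshold 0.05). This scale understates differences of low genes. With 2 libraries against 2, an exact permutation test could reach p = 0.333 at the lowest. No gene had both group means below 0.5009 FPKM. The limma step was tested on simulated data. Members and lists were chosen with earlier results of these data known. Named list genes were those past the threshold, the 3 with the largest difference among genes with groups apart and the 2 of highest level, and other genes were chosen after their values were seen. A gene that this rule names is not reported here.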

Additional observations from a re-analysis of the deposited data

How the results depend on the processing

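The direction of CRYAB held under all 12 alternatives, between 4.09 and 4.87 on the log2 scale when 1 library was left out. Its limma call was lost with a pseudocount of 0.1 (log2 difference 4.85), median-of-ratios scaling (4.57) and quantile normalization (4.54), and without either Res library. The count of genes higher in Res, 5 with all libraries, was 3 under each of those 3 settings and ran from 0 to 19 when 1 library was left out. The count of genes lower in Res, 1 with all libraries, was 3 after rescaling to a common sum and ran from 0 to 13 when 1 library was left out. Why these counts moved was not tested. No list gene outside the members was called under any alternative that kept all 4 libraries, and cell type markers were not part of this count. Replicate numbers were shared between the groups, but deviations of equal numbers correlated at -0.07 across genes, so the numbers were not taken as pairs. With the replicate number as a block limma called 4 genes higher and 1 lower, CRYAB among them at 4.48. BAG3 stayed below 0 (-1.06 to -0.35) and HSPB11 above 0 (0.29 to 0.42), while HSPB1, HSF1 and HSF2 changed sign under 1, 3 and 1 alternatives. The scaling counts of the heat shock list were added after the data were seen. With 2 libraries a group and unknown depth, a difference of the size seen for HSF2 cannot be resolved.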
